A study of Mus musculus with 11 samples.

Results

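Developmental and lineage transcription factors were examined in cell lines derived from ErbB2-driven mouse mammary tumors with and without Cpt1a, the carnitine palmitoyltransferase that passes long-chain fatty acids into mitochondria for oxidation. Members were the protein-coding genes of the deposited expression table whose symbols begin with the stem of a homeobox, forkhead, SOX, GATA, T-box, Kruppel-like, RUNX, TEAD, GLI, ETS, HES/HEY/ID, TFAP, CEBP, AP-1, MAF or nuclear receptor family. The pattern matched 61 of the 4056 protein-coding genes and 4461 genes of all kinds in the table. It also caught Foxred2, a flavoprotein of the endoplasmic reticulum that is no transcription factor, and Tfap4, a basic helix-loop-helix factor outside the AP-2 family; Foxred2 is counted apart from the families.

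The NIC transgene places activated ErbB2 and Cre recombinase on a single transcript under the MMTV promoter, which is active in mammary epithelium, so ErbB2 and Cre were shared by all lines. Tumors were taken from female FVB/N mice, and untreated cultures of the tumor cells were sequenced. NIC/Cpt1a L/L lines (KO_1922, KO_1925, KO_2768 and KO_4258) carried floxed Cpt1a on both alleles, and NIC/Cpt1a +/+ lines (WT_5257 and WT_8905) carried wild-type Cpt1a. There were 7 libraries of the 4 L/L lines and 4 libraries of the 2 +/+ lines, 2 libraries per line except for KO_2768, for which 1 was used here. Genotypes were taken from the genotype field of the labels, which matches the KO and WT of the line names and which the wording of the titles contradicts. Cpt1a itself is not among the listed genes and was not analysed here, so the targeted transcript could not serve as a check of the labels.

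Transcription factors of these families bind short DNA motifs and set which genes a cell lineage uses. In the mammary gland, ELF5 and AP-2 factors are known from the luminal lineage, SOX10 from progenitor and basal-like cells, HES1 and HEY1 as repressors downstream of Notch receptors, and ID proteins as inhibitors of basic helix-loop-helix factors. ETV1 and ETV5 are ETS factors that act downstream of receptor tyrosine kinase and MAPK signaling, and AP-1 is a dimer of FOS and JUN family proteins.

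Promoter sequences of some members lower in L/L lines are shown first, and the part of AP-2 factors in their lower levels was not tested. The stretches are the 250 bases before the start site in RefSeq (build GRCm38.p6), 5′ to 3′ on the strand of the gene, and capitals mark each match to GCCNNNGGC, the palindromic AP-2 motif. They are the members lower in every L/L line whose listed 5′ end lay at the RefSeq start and whose 250 bases held a match. Foxa3 among them was too scarce to be tested between genotypes. Members not lower in L/L lines also held matches, counted below, and their sequences are not shown.
Foxi1, chr11:34208090-34208339, minus strand: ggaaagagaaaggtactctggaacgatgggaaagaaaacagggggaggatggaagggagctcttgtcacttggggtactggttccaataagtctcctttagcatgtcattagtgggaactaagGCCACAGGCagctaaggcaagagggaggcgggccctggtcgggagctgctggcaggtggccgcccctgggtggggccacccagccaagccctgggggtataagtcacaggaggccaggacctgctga
Irx2, chr13:72628570-72628819, plus strand: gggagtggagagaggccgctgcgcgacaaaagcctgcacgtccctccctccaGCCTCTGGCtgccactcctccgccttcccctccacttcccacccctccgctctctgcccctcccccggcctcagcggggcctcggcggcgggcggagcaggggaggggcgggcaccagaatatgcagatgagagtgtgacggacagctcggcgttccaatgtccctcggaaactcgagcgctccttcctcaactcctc
Sox21, chr14:118237031-118237280, minus strand: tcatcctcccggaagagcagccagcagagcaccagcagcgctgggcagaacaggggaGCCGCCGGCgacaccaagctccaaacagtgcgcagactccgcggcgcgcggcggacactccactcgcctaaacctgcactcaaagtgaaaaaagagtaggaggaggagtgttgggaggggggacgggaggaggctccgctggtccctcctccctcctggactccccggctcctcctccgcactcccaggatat
Foxa3, chr7:19023540-19023789, minus strand: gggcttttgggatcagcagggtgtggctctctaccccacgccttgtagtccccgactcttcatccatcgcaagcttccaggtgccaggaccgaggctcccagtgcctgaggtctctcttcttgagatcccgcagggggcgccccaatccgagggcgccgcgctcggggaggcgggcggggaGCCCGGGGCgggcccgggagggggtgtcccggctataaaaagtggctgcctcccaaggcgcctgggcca

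Promoter windows of 300 bases, 250 before and 50 after the start, were found for 41 of the 61 members, and both strands were searched. No window was found for Tfap2c, Sox10, Hes1, Hey1 or Fosl1, so these were not searched. The motif GCCNNNGGC lay in the windows of 16 of the 41 members, or 39.0%, against 18.55% of all 27025 genes with a window. It was present in 8 of 15 members lower in all L/L lines, in 3 of 17 members higher in all L/L lines, and in 5 of 9 members whose lines overlapped. The 15 members take in Foxa3 and Hey2, both with a match and both too scarce to be tested between genotypes. Members' windows were richer in G and C, with medians of 60.8% in the lower, 62.7% in the higher and 63.7% in the overlapping members against 52.7% in all windows. The AP-1 motif TGANTCA lay in 3 of the 41 members (7.3%, against 9.0% of genes), the E-box CACGTG in 6 (14.6%, against 8.1%) and the ETS motif CCGGAAGT in 1 (2.4%, against 4.3%). Matches of different motifs that share bases were each counted, and a match describes letters only.

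Library totals ranged from 18247312 to 25386785 reads in L/L libraries and from 15199378 to 17372643 in +/+ libraries, so every L/L library was deeper. At these totals 3 reads, taken as the floor, correspond to 0.118 to 0.197 CPM, that is, reads scaled to a common library total. Levels are CPM from the summed reads of each line's libraries, and CPM of L/L lines are given in the order KO_1922, KO_1925, KO_2768 and KO_4258, followed by WT_5257 and WT_8905. Genotypes were compared by edgeR's quasi-likelihood test on the 6 line sums, with Benjamini-Hochberg adjustment over the 4268 listed genes that passed the filter on low counts. The table holds only genes the authors selected on this same contrast, so these p-values are too small and describe the difference against the spread between lines. In cultured bulk samples, fewer cells of a type and less RNA per cell cannot be told apart.

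Of the 61 members, 57 passed the filter, and 7 of them fell and 2 rose in L/L lines at an adjusted p under 0.05 (edgeR). Members that fell were Tfap2c, Etv5, Nr4a1, Sox10, Hes1, Irx2 and Hey1, and those that rose were Fosl1 and Foxred2. Among all tested genes 1.66% were raised and 3.47% lowered, so the members' 3.51% and 12.3% stand beside those shares. Leaving out KO_1922 or KO_1925 left 0 members called in either direction, as did counting 20000 tests in place of the 4268. DESeq2 on the same line sums called 20 members raised and 16 lowered, beside 948 and 1429 of all tested genes. At an unadjusted p under 0.05 edgeR had 34 of the 57 members, beside 2154 of the 4268 tested genes.

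Read by line, the genotypes did not overlap for 41 of the 57 tested members. All 4 L/L lines lay above both +/+ lines in 22 members, or 38.6%, where 35.1% of all tested genes did, and below both in 19 members, or 33.3%, where 38.2% did. These shares lay near those of the whole table. The floor was not applied to this count, and some separations lay under it. Lhx6 had 0.046 CPM in KO_4258 against 0.0316 CPM in WT_5257, and Gli1 had 0.0522 CPM in KO_1925 against 0.0316 CPM in WT_5257. The median absolute log2 fold change was 2.57 in members and 1.19 in all tested genes. Genes entered the table by this same contrast, and 8 tested members had at most 3 reads in every library of a genotype. The part of the selection and of low counts in this difference in size was not tested. The log2 fold change was above 0 in 66.7% of members and in 58.6% of all tested genes, with medians of 1.05 and 0.49.

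**Figure D1:**
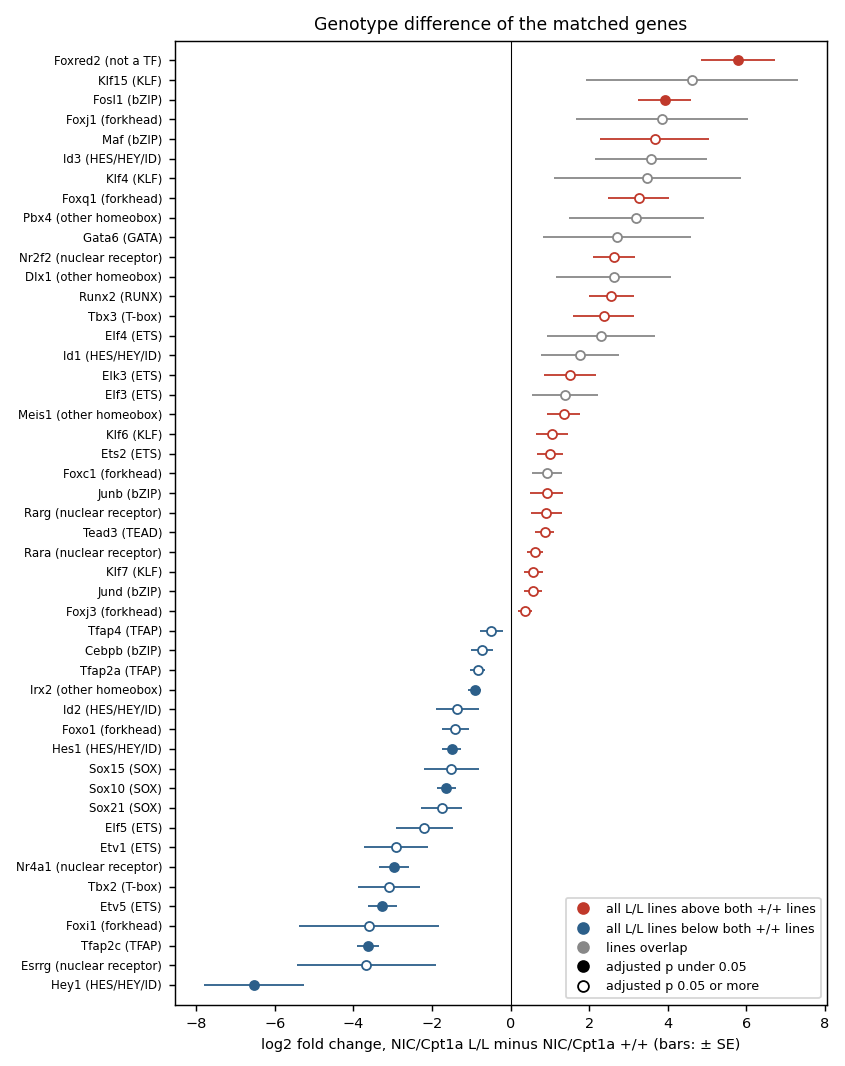
Log2 fold change (L/L minus +/+, edgeR on line sums, bars ± SE) of 48 members, with family in parentheses. A member not reported here, the 8 tested members with at most 3 reads in every library of a genotype and the 4 untested members are left out; filled points passed an adjusted p of 0.05. Values run from -6.53 (Hey1) to 5.79 (Foxred2).

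Of the 5 members most abundant per gene length in +/+ lines, 4 were lower and Junb was higher in all L/L lines. Among all tested genes 38.2% were lower and 35.1% higher in all L/L lines. Ranking by the +/+ level favors genes that are high in +/+ lines, so these directions are not independent of the ranking. By FPKM, which corrects for length, Sox10 had the highest mean of the members in +/+ lines (224.5 ± 13.4, SD, n = 2), followed by Tfap2c (161 ± 14.9), Irx2 (159 ± 7.51), Id2 (151 ± 11.3) and Junb (125 ± 20.4). Tfap2c, Irx2 and Id2 differed by less than their spread. In L/L lines the highest FPKM belonged to Junb (246 ± 97.3, SD, n = 4), Id1 (98.1 ± 61.1), Ets2 (88.6 ± 19.0), Irx2 (88.5 ± 11.6) and Sox10 (75.2 ± 16.2). From Id1 to Sox10 each step between neighbours was smaller than the larger of their SDs. Tfap2c ranked 2 of 61 in +/+ lines and 23 in L/L lines, and Hey1 ranked 8 and 40.

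**Figure D2:**
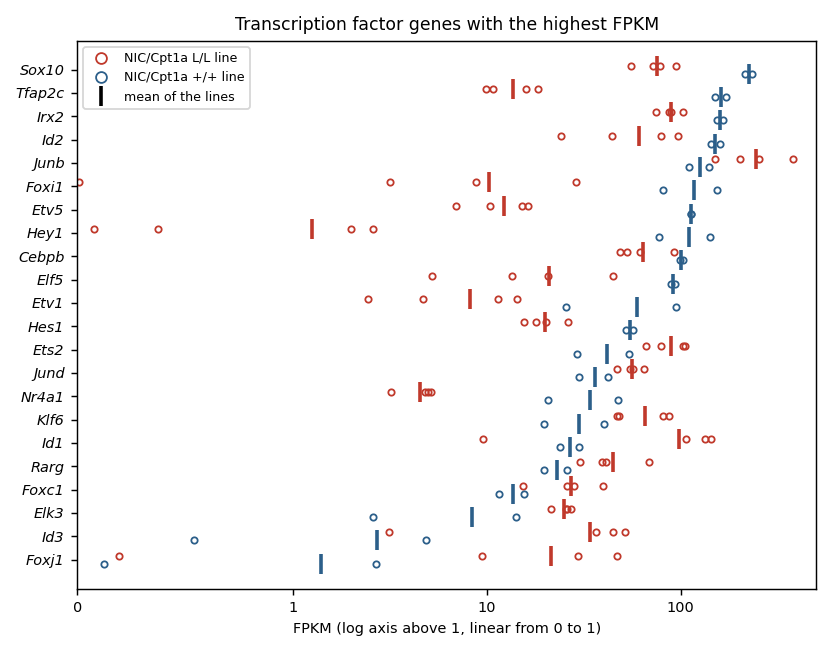
FPKM of each line (circles) and mean of the lines (bars) for the 22 members among the 15 highest in either genotype, in order of the +/+ mean; the axis is logarithmic above 1 and linear from 0 to 1. Only 8 of the 22 were among the 15 highest in both genotypes.

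AP-2 factors were lower in every L/L line, as were 38.2% of all tested genes. Tfap2c (chr2:172549593-172558622, plus strand, GRCm38), which encodes AP-2gamma, stood at 52.1, 28.8, 46.5 and 33.1 CPM in L/L lines and at 463 and 529 CPM in +/+ lines. The 4 L/L lines lay far under both +/+ lines, and Tfap2c fell by 3.63 ± 0.28 (SE) on the log2 scale (edgeR, adjusted p = 0.020). Tfap2a, its AP-2alpha paralog, stood at 48.5, 48.6, 41.8 and 60.1 CPM against 82.9 and 94.3 CPM, a smaller separation (edgeR, log2 fold change -0.83 ± 0.19, adjusted p = 0.059). Gm26688, which shares exonic bases with Tfap2a on the opposite strand, had at most 1.085 CPM in L/L lines. In +/+ lines Gm26688 had 1.105 and 4.278 CPM, and its part in the Tfap2a difference was not tested. Tfap4, matched by name only, was likewise lower in all L/L lines, with a log2 difference of -0.49 ± 0.30 (adjusted p = 0.17).

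All 3 SOX genes were lower in all L/L lines, as were 38.2% of all tested genes. Sox10 (chr15:79154913-79164490, minus strand), the factor of neural crest and mammary progenitor cells, had 187, 147, 252 and 219.6 CPM in L/L lines and 653 and 602 CPM in +/+ lines. It fell by 1.64 ± 0.24 on the log2 scale (adjusted p = 0.036) and by FPKM was the most abundant of the 3 SOX genes in both genotypes. Sox21 had 2.87, 4.88, 1.55 and 2.92 CPM against 9.57 and 10.99 CPM (adjusted p = 0.071), and Sox15 stayed under 0.6 CPM in every line. Sox15 shares exonic bases on the opposite strand with Mpdu1, which had 47.2 to 60.7 CPM in L/L lines and 89.4 and 115 CPM in +/+ lines, and Sox21 with Gm4675, which was also lower in all L/L lines. Their part in the Sox15 and Sox21 differences was not tested. Mlana was the single melanocyte marker listed, of 6, and it had 246 CPM in WT_5257, 36.6 CPM in WT_8905 and at most 0.364 CPM in L/L lines; its part in the Sox10 difference was not tested.

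In the HES/HEY/ID family, the basic helix-loop-helix repressors Hes1 and Hey1 fell, while the 3 ID genes split. Hey1 (chr3:8663362-8667039, minus strand) had 4.20, 0.809, 5.62 and 0.184 CPM in L/L lines and 322 and 175 CPM in +/+ lines. It fell by 6.53 ± 1.27 on the log2 scale (adjusted p = 0.048), the largest fall among members past the threshold, and its ratio of mean CPM was 92.0 in favor of +/+ lines. Hes1 (chr16:30064384-30067796, plus strand) had 28.4, 22.3, 37.8 and 27.9 CPM against 78.7 and 86.2 CPM and fell by 1.503 ± 0.24 (adjusted p = 0.040). Both genes thus lay lower in each L/L line than in either +/+ line, Hey1 by far more. Hey2 did not pass the filter: its highest library had 8 reads in +/+ and 1 read in L/L lines.

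ID proteins lack a DNA-binding region and hold basic helix-loop-helix partners away from DNA. Id2 had 53.2, 29.9, 98.8 and 126.5 CPM in L/L lines and 186 and 208 CPM in +/+ lines, lower in all L/L lines (log2 fold change -1.36 ± 0.55, adjusted p = 0.098). Id1 had 147, 119.8, 163 and 11.4 CPM against 28.4 and 36.0 CPM. Id3 had 44.7, 56.0, 64.6 and 4.19 CPM against 0.695 and 6.43 CPM. KO_1922, KO_1925 and KO_2768 thus lay above both +/+ lines in Id1 and Id3, whereas KO_4258 lay below both in Id1 and between them in Id3.

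ETS genes went in both directions. Etv5 (chr16:22381309-22439719, minus strand) had 39.6, 27.1, 63.8 and 62.1 CPM in L/L lines and 462 CPM in each of the +/+ lines, and fell by 3.26 ± 0.37 on the log2 scale (adjusted p = 0.023). Its PEA3-group relative Etv1 had 19.3, 10.2, 60.5 and 51.1 CPM against 416 and 114 CPM (log2 fold change -2.91 ± 0.82, adjusted p = 0.068). KO_1922 and KO_1925 were the lower L/L lines in both genes. Elf5, a factor of the luminal alveolar lineage, had 64.0, 43.0, 143 and 17.6 CPM against 298 and 316 CPM, again with no overlap (log2 fold change -2.20 ± 0.73, adjusted p = 0.080).

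On the other side, Elk3, a ternary complex factor, had 102, 106, 89.0 and 119 CPM in L/L lines and 11.1 and 61.5 CPM in +/+ lines. Ets2 had 382, 401.5, 303 and 266.5 CPM against 117 and 218 CPM. Both were above the +/+ range in all L/L lines, with log2 fold changes of 1.52 ± 0.66 (adjusted p = 0.11) and 1.01 ± 0.33 (adjusted p = 0.077). Elf3 overlapped: it had 73.4 CPM in KO_4258, between 11.01 and 19.5 CPM in the other L/L lines, and 11.9 and 11.7 CPM in +/+ lines. Elk3 shares exonic bases on the opposite strand with Cdk17, which was lower in all L/L lines, and whether reads were counted by strand is not given in the sources used here.

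Among bZIP genes, the AP-1 subunits were higher in all L/L lines, as were 35.1% of all tested genes. Fosl1 (chr19:5447703-5455945, plus strand), which encodes FRA-1, had 18.2, 23.9, 28.3 and 27.2 CPM in L/L lines and 0.663 and 2.53 CPM in +/+ lines. It rose by 3.93 ± 0.67 on the log2 scale (adjusted p = 0.042). Fosl1 overlaps exonic bases of Ccdc85b on the opposite strand, and Ccdc85b had between 24.0 and 29.9 CPM in L/L lines and 14.0 CPM in each +/+ line; its part in the Fosl1 difference was not tested. Junb had 443, 364.5, 271 and 717.5 CPM against 264 and 210.3 CPM, and Jund had 178, 153, 133 and 169 CPM against 88.4 and 125 CPM. Both lay above the +/+ range in every L/L line by line sums, with adjusted p values of 0.11 and 0.094 (edgeR). By library they overlapped at the single library of KO_2768. There Junb had 266.3 CPM against 267.5 CPM in library 2 of WT_5257, and Jund had 131 CPM against 132.7 CPM in library 1 of WT_8905. Maf, a large MAF factor, was at 0.996 and 1.44 CPM in KO_1922 and KO_1925, at 13.5 and 7.45 CPM in KO_2768 and KO_4258, and at 0.379 and 0.531 CPM in +/+ lines.

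Cebpb, which encodes a factor required for mammary ductal and alveolar growth, went the other way. It had 87.8, 71.6, 137 and 81.4 CPM in L/L lines and 159 and 153 CPM in +/+ lines (log2 fold change -0.72 ± 0.28, adjusted p = 0.096).

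Of the 5 nuclear receptor genes 3 were higher and 2 lower in all L/L lines, where 35.1% and 38.2% of all tested genes were. Nr4a1 (chr15:101266846-101274792, plus strand), an immediate early orphan receptor, had 11.3, 7.73, 12.6 and 12.7 CPM in L/L lines and 121 and 52.6 CPM in +/+ lines and fell by 2.97 ± 0.38 on the log2 scale (adjusted p = 0.032). Esrrg, an estrogen-related orphan receptor of oxidative tissues, had 1.19, 0.496 and 6.43 CPM in KO_1922, KO_1925 and KO_2768, 0 reads in KO_4258, and 33.4 and 18.2 CPM in +/+ lines. The count of 0 in KO_4258 allows up to 0.122 and 0.148 CPM in its 2 libraries. Nr2f2, which encodes COUP-TFII, had 60.5, 85.5, 78.8 and 27.2 CPM in L/L lines and 11.8 and 8.52 CPM in +/+ lines (log2 fold change 2.63 ± 0.54, adjusted p = 0.051). The retinoic acid receptor genes Rara and Rarg were also higher in all L/L lines, by log2 fold changes of 0.62 ± 0.21 and 0.91 ± 0.39 (adjusted p = 0.079 and 0.10).

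**Figure D3:**
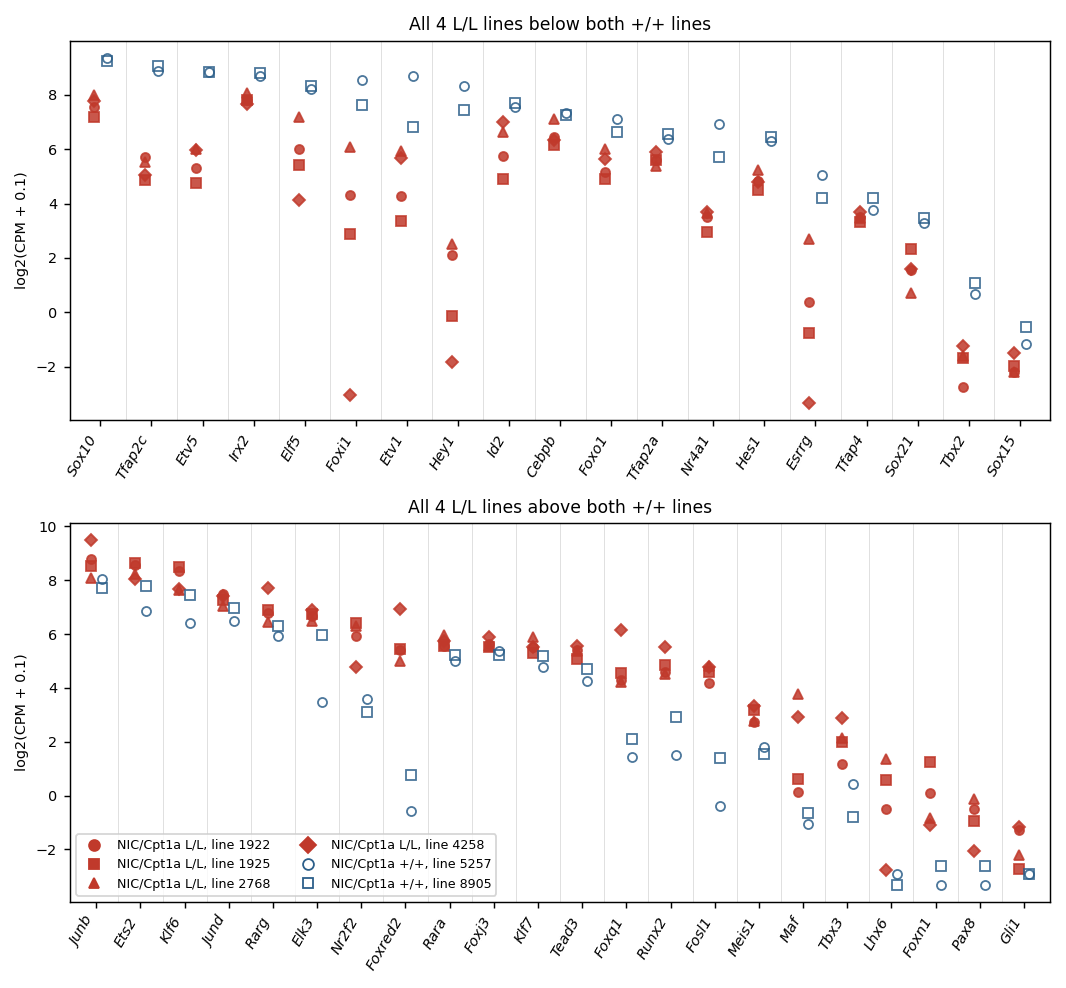
Log2(CPM + 0.1) of each line for the 41 tested members whose genotypes do not overlap, 19 with all L/L lines (filled, red) below both +/+ lines (open, blue) and 22 with all L/L lines above. The L/L points of Irx2, Tfap2a and Tfap4 lie close together, whereas those of Foxi1, Hey1 and Esrrg spread widely under the +/+ points.

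Forkhead genes formed the largest family, with 11 members. Of the 9 tested, 3 were higher and 2 lower in all L/L lines and 4 overlapped, and none passed the threshold. Among all tested genes 35.1% were higher and 38.2% lower in all L/L lines. Foxi1, an ionocyte factor, had 19.7, 7.26, 67.0 and 0.023 CPM in L/L lines and 374 and 196 CPM in +/+ lines. KO_4258 held 1 Foxi1 read in its 2 libraries, whereas the +/+ libraries held up to 6342. Foxo1, a target of insulin and AKT signaling, had 35.5, 29.5, 63.4 and 50.1 CPM against 137 and 99.8 CPM (log2 fold change -1.41 ± 0.34, adjusted p = 0.062). Foxq1 had 19.4, 23.3, 18.7 and 70.1 CPM in L/L lines and 2.62 and 4.22 CPM in +/+ lines, higher in all L/L lines (log2 fold change 3.26 ± 0.78, adjusted p = 0.061). Foxj3, at 46.2 to 58.9 CPM in L/L lines and 40.9 and 37.0 CPM in +/+ lines, had the smallest fold change of the members. Foxa3 did not pass the filter, with at most 6 reads in any L/L library and 19 in any +/+ library. Foxn1, the thymic epithelium and hair follicle factor, was seen at 0.971, 2.24, 0.465 and 0.368 CPM in L/L lines and at no more than 2 reads in any +/+ library. Foxred2, not a forkhead gene, had 42.3, 43.0, 31.8 and 123 CPM in L/L lines and 0.568 and 1.59 CPM in +/+ lines and rose by 5.79 ± 0.94 (adjusted p = 0.041).

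Homeobox members differed by group. Irx2 (chr13:72628820-72634198, plus strand), of the Iroquois group, had 222, 224, 267 and 203 CPM in L/L lines and 416 and 446 CPM in +/+ lines and fell by 0.91 ± 0.17 on the log2 scale (adjusted p = 0.047). Meis1, a partner of HOX proteins, had 6.46, 9.03, 6.74 and 9.87 CPM against 3.41 and 2.84 CPM (log2 fold change 1.36 ± 0.42, adjusted p = 0.075). Lhx6 had 0.607, 1.41, 2.44 and 0.046 CPM in L/L lines and at most 1 read in any +/+ library. Dlx1 and Pbx4 overlapped, with at most 2.40 and 2.19 CPM in L/L lines and 0.284 and 0.219 CPM in +/+ lines. Pax8, a paired box factor, had 0.607, 0.418, 0.814 and 0.138 CPM in L/L lines, the last of them 5 and 1 reads, and at most 2 reads in any +/+ library. KO_4258 thus lay near the floor, and Gm13415, which overlaps Pax8 on the opposite strand, had 1.66 to 4.30 CPM in L/L lines and 0.126 and 0.468 CPM in +/+ lines.

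The HOX cluster genes Hoxa9 and Hoxb6 did not separate the genotypes, and both were scarce. Hoxa9 had 28 and 33 reads in the libraries of WT_5257, 0 in both of WT_8905 and at most 2 in any L/L library. Hoxb6 had at most 13 reads in any L/L library and at most 1 in any +/+ library. Foxc2 showed the same distribution as Hoxa9, with 35 and 18 reads in WT_5257, 0 in WT_8905 and at most 2 in any L/L library. Hoxa9 and Foxc2 were thus present above the floor only in WT_5257 among these libraries.

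Of the T-box genes, Tbx2 and Tbx3, paralogs with roles in mammary bud formation, went opposite ways. Tbx2 had 0.0486, 0.209, 0.233 and 0.322 CPM in L/L lines and 1.48 and 2.03 CPM in +/+ lines (log2 fold change -3.09 ± 0.80, adjusted p = 0.064). Tbx3 had 2.14, 3.84, 4.30 and 7.31 CPM against 1.23 and 0.468 CPM (log2 fold change 2.37 ± 0.78, adjusted p = 0.079). Runx2, the runt domain factor of bone, had 23.9, 28.6, 22.5 and 46.1 CPM against 2.72 and 7.49 CPM (log2 fold change 2.57 ± 0.58, adjusted p = 0.058). Tead3, a DNA-binding partner of YAP and TAZ, had 42.4, 33.3, 41.4 and 47.2 CPM against 19.0 and 26.0 CPM (log2 fold change 0.87 ± 0.25, adjusted p = 0.068). Tbx3, Runx2 and Tead3 were above the +/+ range in all L/L lines but missed the threshold. Gli1, the Hedgehog target and effector, had at most 8 reads in any library. It shares exonic bases on the opposite strand with Arhgap9, at 0.0775 to 0.966 CPM in L/L lines and at most 0.0312 CPM in +/+ lines. Runx2 overlaps Runx2os1 in the same way, which was higher in all L/L lines but had at most 1.93 CPM. The part of these genes in the Gli1 and Runx2 differences was not tested.

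All 4 Kruppel-like genes had log2 fold changes above 0, as had 58.6% of all tested genes. The 2 that separated the genotypes, Klf6 and Klf7, were higher in all L/L lines, as were 35.1% of all tested genes. Klf6 had 324.5, 356, 199 and 204 CPM in L/L lines and 85.6 and 176 CPM in +/+ lines (log2 fold change 1.05 ± 0.42, adjusted p = 0.097). Klf7 lay at 39.3 to 59.0 CPM in L/L lines against 27.4 and 36.2 CPM (log2 fold change 0.58 ± 0.24, adjusted p = 0.10). Klf4, a factor of epithelial differentiation, overlapped because of KO_4258: it had 20.2, 36.4 and 110.1 CPM in the other L/L lines, 0 reads in KO_4258, and 3.41 and 4.03 CPM in +/+ lines.

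Differences among the L/L lines were tested on the libraries, with the spread taken from duplicates of a line; this contrast lies within a genotype. By edgeR's quasi-likelihood test 54 of 59 members differed among the L/L lines at an adjusted p under 0.05, or 91.5%, against 88.6% of all listed genes tested, so near the background. The range of log2(CPM + 0.1) among L/L lines exceeded 2 in 24 of the 57 members, or 42.1%, against 27.6% of all tested genes, and its median was 1.65 against 0.97. The 5 widest ranges belonged to Klf4 (10.1), Tbx15 (9.50), Foxi1 (9.09), Foxf1 (8.16) and Foxj1 (7.64).

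KO_4258 stood apart in many of these. In 15 members 3 of the 4 L/L lines lay above both +/+ lines, and the line left behind was KO_4258 in 11 of them, or 73.3%; over all listed genes it was KO_4258 in 479 of 962, or 49.8%. Foxf1, a factor of mesenchyme, had 28.7, 21.2 and 35.0 CPM in the other L/L lines, 1 read in the libraries of KO_4258, and at most 2 reads in any +/+ library. Tbx15, a factor of limb and skeletal mesenchyme, had 2.87 and 8.87 CPM in KO_1922 and KO_1925, 105 CPM in KO_2768, 0.046 CPM in KO_4258 and at most 2 reads in any +/+ library. Both genes were thus near 0 in KO_4258 as in the +/+ lines. Gata6, a factor of endoderm, had 2.65, 3.05 and 9.03 CPM in the other L/L lines, 0.046 CPM in KO_4258 and 0.126 and 0.999 CPM in +/+ lines. Elf4, an ETS factor, had 27.6 to 50.7 CPM in the other L/L lines, 1.86 CPM in KO_4258 and 1.93 and 10.9 CPM in +/+ lines. Foxj1, a factor of motile cilia, was high in KO_1922, KO_1925 and KO_4258, with 73.7, 120.4 and 25.7 CPM, and had 0.504 CPM in KO_2768, between the 0.347 and 7.24 CPM of the +/+ lines. Without KO_4258, 33 tested members had every L/L line above both +/+ lines, in place of 22, while the 19 lower members stayed at 19. Over all tested genes the same step took the higher genes from 1496 to 1956 and the lower ones from 1629 to 1676, and leaving out any line eases this criterion.

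Foxf1, Foxc2 and Foxl1 are neighbours on chromosome 8, with Foxc2 28.0 kb from Foxf1 and Foxl1 9.05 kb beyond it, and their patterns differed. Foxf1 was present in KO_1922, KO_1925 and KO_2768, Foxc2 in WT_5257, and Foxl1 was highest in KO_4258, where its 2 libraries had 56 and 39 reads. No library held more than 12 Foxl1 reads elsewhere. Foxc1, the paralog of Foxc2 on another chromosome, had 97.7, 153, 109 and 62.6 CPM in L/L lines and 47.3 and 63.7 CPM in +/+ lines.

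**Figure D4:**
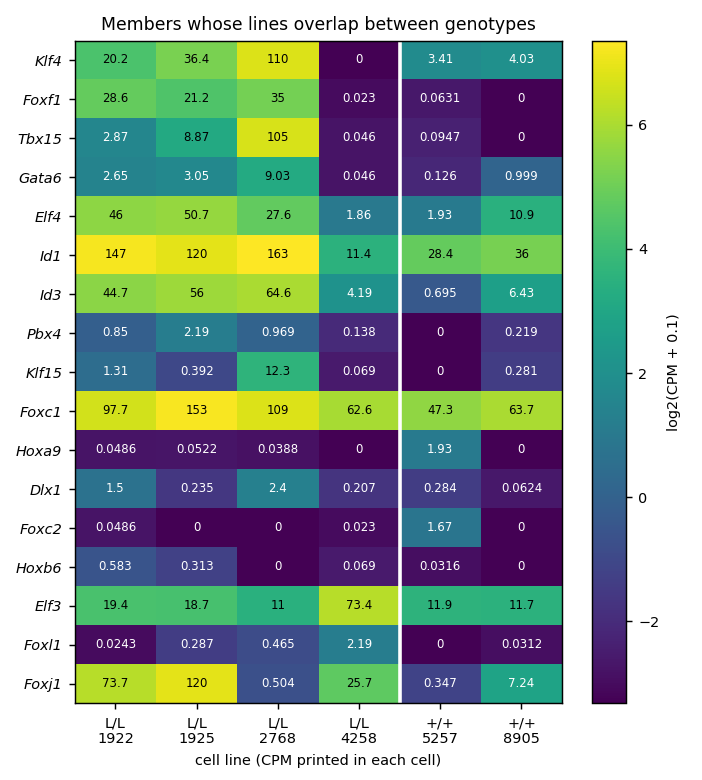
CPM in each line (printed; color is log2(CPM + 0.1)) of 17 members whose genotypes overlap, ordered by KO_4258 relative to the lowest other L/L line. From Klf4 to Dlx1, KO_4258 was the lowest L/L line; Foxl1 and Elf3 were highest there, and Hoxa9 and Foxc2 appear in WT_5257.

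Markers of other cell types also differed between these lines. Of 10 fibroblast markers 4 are listed, Col1a2, Pdgfrb, Dcn and Thy1, and their summed level was 7.77, 3.29, 1393 and 0 CPM in L/L lines and at most 0.0937 CPM in +/+ lines. The sum in KO_2768 was mostly Dcn, at 1368 CPM. In L/L lines Col1a2 had 4.35, 1.46, 5.70 and 0 CPM, Pdgfrb had 2.14, 0.783, 13.4 and 0 CPM, and Thy1 had 1.14, 0.157, 6.16 and 0 CPM. Of 10 immune markers 2 are listed, Csf1r and Cd74. Csf1r had 312.5 CPM in KO_4258, 4.03 and 17.2 CPM in KO_1922 and KO_1925 and 0.0775 CPM in KO_2768, whereas Cd74 had 0.291, 0.418, 0.349 and 0.713 CPM in L/L lines and at most 0.219 CPM in +/+ lines. Of 12 luminal markers 3 are listed, Muc1, Erbb3 and Prlr, with summed levels of 209 to 264 CPM in L/L lines and 362 to 394 CPM in +/+ lines. Erbb3 and Prlr were lower in all L/L lines. Muc1 overlapped, with 0.690 to 2.21 CPM in L/L lines against 1.74 and 10.2 CPM. Of 8 basal markers 3 are listed, and they went different ways. Krt17 had 1.17 to 10.6 CPM in L/L lines and at most 0.0312 CPM in +/+ lines, Acta2 had 0.046 to 3.88 CPM against at most 0.0937 CPM, and Oxtr had 0.046 to 6.51 CPM against 2.90 and 55.5 CPM. The adipocyte marker Fabp4, the single one listed of 4, had 0.437 to 2.13 CPM in L/L lines and at most 0.125 CPM in +/+ lines. No endothelial marker of 6 is listed, and the unlisted markers were not analysed here. The part of these markers in the differences of Foxf1, Tbx15, Elf3, Foxq1 and the other members was not tested.

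Between the +/+ lines, 38 of 59 members differed at an adjusted p under 0.05, 27 higher and 11 lower in WT_8905, or 64.4% in all against 61.1% of the listed genes. Elk3 was 2.52 ± 0.09 higher on the log2 scale in WT_8905 (edgeR, adjusted p = 3.63e-30) and Id3 was 3.25 ± 0.26 higher (adjusted p = 1.94e-15). The log2 difference, WT_8905 minus WT_5257, was -1.82 ± 0.06 for Etv1 (adjusted p = 8.20e-32), -1.15 ± 0.07 for Nr4a1 (adjusted p = 1.75e-19) and -0.83 ± 0.05 for Hey1 (adjusted p = 3.03e-19). Tests gave adjusted p values of 0.38 for Etv5, 0.27 for Sox10 and 0.14 for Hes1, whose log2 differences were 0.05, -0.06 and 0.18. With DESeq2 size factors the split was 21 higher and 15 lower, and over all listed genes it turned from 1584 higher and 1089 lower to 1239 and 1520.

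Of 34 cofactors of these families 8 are listed, and none passed the genotype test. Vgll3, a TEAD cofactor, had 48.2, 38.9, 40.2 and 15.9 CPM in L/L lines and 0.568 and 4.65 CPM in +/+ lines (adjusted p = 0.065), and Zfpm2, a GATA cofactor, was likewise higher in all L/L lines (adjusted p = 0.084). The other 6 were lower in all L/L lines, with log2 fold changes from -1.47 (Tle2) to -0.59 (Ncoa2). They were the co-repressors Tle1 and Tle2, the LIM-domain factor Lmo4 and the receptor coactivators Ncoa1, Ncoa2 and Ncoa3. Among all tested genes 38.2% were lower and 35.1% higher in all L/L lines. Of 25 Polycomb and trithorax genes 3 are listed; Jarid2 and Bmi1 were lower and Rnf2 higher in all L/L lines, and none passed the test.

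Of 35 mammary lineage factors 18 are listed, all of them members. Among the 17 tested, 3 fell (Tfap2c, Sox10 and Hey1), 8 were lower and 4 higher in all L/L lines, beside 3.47% of all tested genes that fell, 38.2% that were lower and 35.1% that were higher in all L/L lines. The median log2 fold change was 0.62 against 0.49 over all tested genes. Their summed level was 857 to 1292 CPM in L/L lines and 2251 to 2297 CPM in +/+ lines. Most of the +/+ sum came from Sox10, Tfap2c, Hey1 and Elf5. In WT_5257 and WT_8905 these had 653 and 602, 463 and 529, 322 and 175, and 298 and 316 CPM. Of the 17 tested factors, 9 had log2 fold changes above 0 and 8 below 0, so the sum does not describe the list as a whole.

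Members on some chromosomes went with the direction of most genes there, and on others they did not. All 6 tested members on chromosome 8 had log2 fold changes above 0, as had 77.7% of all tested genes there, and both tested members on chromosome 12, Etv1 and Id2, were below 0 where 15.5% of genes were above 0. On chromosome 4, 3 of 3 members and 85.3% of genes were above 0, and on chromosome 17, 2 of 2 members and 86.1%. On chromosomes 6, 7, 14 and 18 it went the other way: 2 of 2, 1 of 1, 0 of 1 and 1 of 1 tested members were above 0, where 46.0%, 42.2%, 68.3% and 43.1% of genes were. The part of chromosome position in these differences was not tested.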

How the data were processed

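RNA-Seq was performed on 11 libraries of 6 tumor-derived mouse cell lines. Per the study's methods, the authors aligned reads to mm10 (GRCm38) with STAR, used HTSeq for gene-level counting and DESeq2 to test genotypes, and the submitters' processing notes also name Trimmomatic, edgeR and limma. The deposited counts are whole numbers without normalization. The authors also deposited a normalized signal (counts divided by a size factor per library) and FPKM (counts per gene length and library total). The deposited log2 fold changes and p-values of the authors' comparison were not used. Only genes that passed that comparison are in the table, and genes outside it were not analysed here. Whether counting was stranded is not given in the sources used here; 23 of the 61 members share exonic bases with a gene on the other strand in GENCODE annotation.

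Listed genes held 33.3% to 34.6% of each library's reads, so library totals were recovered from counts, lengths and FPKM. Reads were summed by line, since the line was the replicate. R 4.3.3, edgeR 4.0.16 (TMM factors on recovered totals, filterByExpr, quasi-likelihood F-test), limma 3.58.1, DESeq2 1.42.0, Python 3.11.15, pandas 2.3.3 and matplotlib 3.10.9 were used; log2 fold changes are edgeR estimates. The scripts were tested on simulated data. Floors cover counting error only. Of 11 libraries no 2 held identical values. Genotype p-values cover the spread between these lines only, and the libraries of a line carry the labels of biological replicates 1 and 2.

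Members and lists were chosen with earlier results of these data known. Genes were named if they passed the genotype test, were among the 2 raised or 2 lowered with the largest change in a family (lines not overlapping, mean CPM of 1 or more in a genotype), were HOX genes or listed mammary lineage factors, or had 1 of the 5 widest ranges among L/L lines. Other members named in the text, and the neighbours of Foxf1, were chosen after their values were seen. Alternatives were other size factors, no filter, DESeq2, libraries as samples, a replicate block, library 2 only, more tests, and leaving out each line. The values of 1 member are not reported here, though it is counted among the members.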

Additional observations from a re-analysis of the deposited data

Results flagged for a closer look

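Among the 51 members with a mean of at least 1 CPM in L/L lines, 5 had a single L/L line far from the other 3, by the gap to the nearest line over the whole range (Dixon's ratio, above its critical value for 4 values). For normally distributed values chance flags about 1 in 20 such groups. CPM were not put on a log scale, so that rate need not hold here. The share over all listed genes was not computed, and the far line was the highest in all 5 members. In Foxq1 (0.912), Foxred2 (0.877) and Elf3 (0.865) the far line was KO_4258, above the others. In Tbx15 (0.916) and Klf15 (0.899), a Kruppel-like gene at 12.3 CPM in KO_2768 and between 0.069 and 1.31 CPM in the other L/L lines, it was KO_2768.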

How the results depend on the processing

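Counts of members called between genotypes (2 raised, 7 lowered) depended on the setting. With every library as a separate sample they were 27 and 18, with the replicate block also 27 and 18, with DESeq2 on line sums 20 and 16, with DESeq2 size factors 4 raised, and over 20000 tests 0 and 0. Leaving out a line gave 0 to 8 raised and 0 to 9 lowered members. Over all listed genes (71 raised, 148 lowered) the counts were 1873 and 1680 by library, 1706 and 1680 with the block, 948 and 1429 with DESeq2, and 0 and 0 over 20000 tests; lowered genes were 301 with DESeq2 size factors, 82 with the authors' size factors and 252 without the filter. Leaving out a line gave 0 to 294 raised and 0 to 347 lowered genes. Without a +/+ line the remaining line was assumed to vary like the L/L lines. The cause was not tested. Library numbers did not pair the samples: deviations of same-numbered libraries correlated between -0.058 and 0.037.

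Of 774 values for single members under these alternatives, 615 kept direction and side of the threshold, 114 newly passed it, 45 no longer passed it and 0 changed direction. Counts of members that separated the genotypes or differed among L/L or between +/+ lines stayed within 1.5 times. Libraries of a line cover the spread within a line only, and with 2 +/+ lines the spread of that genotype is poorly known.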
